A study of Mus musculus with 12 samples.

Results

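The genes described here encode the subunits of potassium channels (symbols that start with Kcn), sodium channels (Scn) and calcium channels (Cacn). They were chosen by symbol from the 54833 genes of the series. The rule itself used no measured difference, but it was set with earlier results of these data known. Of 137 symbols that fit the rule, 124 had a mean of 10 or more counts over the 12 samples and were kept, and 13 were below it, the highest of them with a mean of 7.92 counts. Kcnj13 was not part of the set. Of the 124 genes, 119 name a subunit and 5 are non-coding RNAs that overlap a channel gene or carry its name (Kcnab3os, Kcnd3os, Kcnmb4os1, Kcnmb4os2 and Kcnq1ot1). All 124 were among the 21495 genes that passed the filter on low counts and were tested.

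The samples came from male wild-type C57BL/6 mice, young at 8 to 10 weeks or aged at 20 to 22 months. Intracerebral hemorrhage (ICH) had been induced by an injection of type IV collagenase, an enzyme that degrades the vessel wall, into the right basal ganglia, and sham mice had received saline by the same surgery. Tissue around the hematoma in the caudate putamen of the injected side was collected 24 h after surgery, and each age had a sham and an ICH group of 3 samples. Each sample pooled several mice, and the *P* values measure the spread between such pools, not between single mice.

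Neurons set their resting potential with leak and inwardly rectifying potassium channels, fire action potentials with sodium channels and repolarize with voltage-gated potassium channels, while calcium channels couple firing to transmitter release and to signaling in the cell. Each channel has pore-forming subunits and accessory subunits that govern its gating, its place in the membrane and its amount at the surface. Projection neurons of the striatum are known for strong inwardly rectifying and A-type potassium currents, which hold them silent until strong input arrives. Astrocytes take up extracellular potassium through Kcnj10, and some channels, such as Kcnn4, serve leukocytes and glia rather than neurons.

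Libraries held 28410896 to 37785160 counts in genes. The makeup of the tissue varied between samples of the same group. The summed level of 10 markers of striatal projection neurons was 834, 514 and 482 FPKM (fragments per gene, scaled by the authors for transcript length and library size) in the young sham samples, 372, 146 and 545 in young ICH, 625, 773 and 430 in aged sham and 111, 616 and 255 in aged ICH. Young ICH sample 2 and aged ICH sample 1 were the lowest in them. The summed level of 6 choroid plexus markers was over 1000 FPKM in young ICH sample 3 (3192) and in aged ICH samples 1 and 2 (1237 and 1581), and at most 344 FPKM in the other 9 samples. Markers of cortical excitatory neurons were present in every sample, with 164 to 310 FPKM in sum over 6 genes. Markers of skeletal muscle summed to at most 4.73 FPKM, and those of infiltrating leukocytes to 4.74 to 18.2 FPKM in sham and 16.7 to 48.8 FPKM in ICH samples.

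Levels of the channel genes spanned a wide range. The mean over the 12 samples was 10 FPKM or more for 54 of the 124 genes and under 1 FPKM for 25. Accessory subunits were among the highest, with Scn4b (87.9 FPKM), Kcnab2 (80.8 FPKM), Scn2b (66.8 FPKM) and Cacng7 (57.7 FPKM). The neighbours in that order were not separated throughout: Scn4b spread over 33.8 to 142 FPKM between samples and crossed the ranges of Kcnab2, Scn2b and Cacng7. Among pore-forming subunits, the astrocytic potassium channel Kcnj10 (42.3 FPKM) and the neuronal inward rectifier Kcnj4 (41.8 FPKM) were highest, followed by the delayed rectifier Kcna2 (35.5 FPKM).

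**Figure D1:**
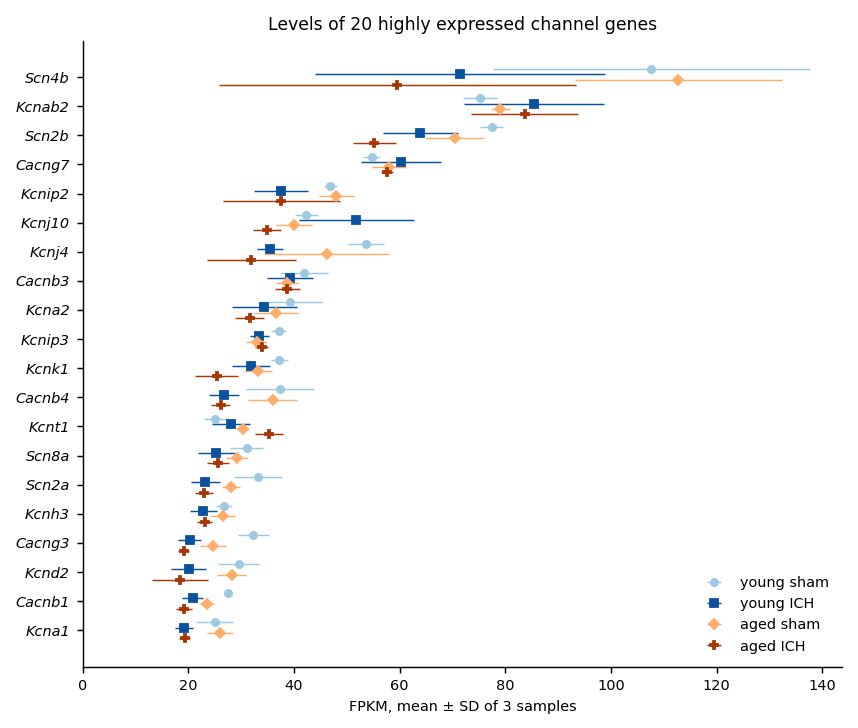
Mean FPKM with SD over 3 samples for 20 highly expressed channel genes that the text names, in the 4 groups named in the legend (x axis in FPKM, linear). Scn4b had the widest bars, and Kcnj4, Scn2a, Cacng3 and Kcnd2 had lower means in both ICH groups than in both sham groups.

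The first question was which channel genes differed 24 h after ICH in young mice. Most were lower: 95 of the 124 had a log2 fold change (log2FC) below 0 in young ICH vs. young sham, and their median log2FC was -0.34, against 0.02 over all genes tested. Genes were counted as differentially expressed (DEGs) by the criterion of the study, a fold change (FC) over 1.5 or under 0.67 with an unadjusted *P* under 0.05. In young ICH vs. young sham, 21 channel genes were DEGs with lower and 3 with higher levels, or 16.9% and 2.42% of the 124, where 3.41% and 8.48% of all genes tested met the criterion. By the *P* adjusted over all genes with no limit on FC, 36 channel genes (29.0%) were lower and 1 (0.806%) was higher, where the shares of all genes were 9.13% and 9.77%. Below, "fell" and "rose" are used only of genes with an adjusted *P* under 0.05.

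Channel genes took 1.18 to 1.29% of all counts in the young sham samples and 0.951 to 1.07% in the young ICH samples. In the aged samples the share was 1.14 to 1.21% in sham and 0.946 to 1.01% in ICH. At each age the sham and ICH samples did not overlap. Of 10 general markers of neurons, 10 had a log2FC below 0 at both ages and 3 in young and 1 in aged mice passed the adjustment, with a median of -0.27 in young and -0.22 in aged mice, and their summed level was 1439 to 1598 FPKM in young sham, 1106 to 1436 in young ICH, 1370 to 1456 in aged sham and 1219 to 1301 in aged ICH. Medians in young and aged mice were -0.53 and -0.24 for 6 cortical excitatory markers and -0.54 and -0.55 for 6 interneuron markers. For the 10 striatal projection neuron markers they were -0.95 and -1.11. By adjusted *P*, 1 cortical excitatory, 2 interneuron and 0 striatal markers were lower at each age. In bulk tissue, fewer cells of a type and less RNA per cell cannot be told apart, so every value below is a level in the tissue as sampled. The counts depended on single samples, since without young sham sample 2 the adjusted count of lower genes was 18, without young sham sample 3 it was 23 and without young ICH sample 3 it was 20. The count over all genes moved with it, from 1962 to 910, 1283 and 1125. With every single sample left out in turn, 18 of the 37 genes kept an adjusted *P* under 0.05. The 19 others were Cacna2d1, Cacnb4, Cacna1a, Cacna1b, Kcnn2, Kcnj11, Kcnj4, Kcnh3, Kcnh5, Kcnf1, Kcna1, Kcna3, Kcnb2, Kcnd2, Kcnip1, Kcnip3, Scn2b, Scn3a and Scn8a.

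In aged ICH vs. aged sham, 100 of the 124 genes had a log2FC below 0, with a median of -0.28 against 0.00 over all genes. Here 14 channel genes (11.3%) were DEGs with lower and 2 (1.61%) with higher levels, where 2.71% and 7.04% of all genes met the criterion. By adjusted *P*, 21 (16.9%) were lower and 1 (0.806%) was higher, where the shares of all genes were 6.14% and 6.83%. By DESeq2, 33 were lower by adjusted *P*, as were 1846 of the 39871 genes with an unadjusted *P*. DESeq2 can leave genes with low counts out of its adjustment, so this total cannot be set beside that of edgeR. The edgeR counts rested on few samples: the DEG count of lower genes was 3 without aged ICH sample 1, 24 without aged ICH sample 2 and 9 without aged ICH sample 3. Over all genes, the DEG count of lower genes moved from 582 to 438, 1074 and 489. The adjusted count of lower channel genes was 4, 34 and 10 in that order, 9 without aged sham sample 1 and 12 without aged sham sample 2. The count over all genes moved with it, from 1319 to 267, 1403, 476, 463 and 570. The DEG count of higher channel genes was 0 without aged sham sample 2, 1 without aged ICH sample 1 and 4 without aged ICH sample 2, aged ICH sample 3, aged sham sample 3 or young ICH sample 1. Over all genes, the DEG count of higher genes moved from 1514 to 1254, 1165, 1676, 1462, 1619 and 1567 in that order. With every single sample left out in turn, 3 of the 22 genes kept an adjusted *P* under 0.05, namely Kcnq3, Kcns2 and Kcna6. The median log2FC of the channel genes stayed between -0.33 and -0.26 and 93 to 103 of them stayed below 0 whichever sample was left out.

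The responses at the 2 ages share no samples. They had the same sign in 87.9% of the channel genes, 90 lower and 19 higher at both ages, and in 78.4% of all genes tested. The log2FC of the 2 ages had Pearson's r of 0.84 across the 124 channel genes and 0.73 across all genes, which are not independent replicates. By adjusted *P*, 19 channel genes fell at both ages, 52.8% of those that fell in young and 90.5% of those that fell in aged mice, while over all genes the overlap was 50% and 74.4%.

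**Figure D2:**
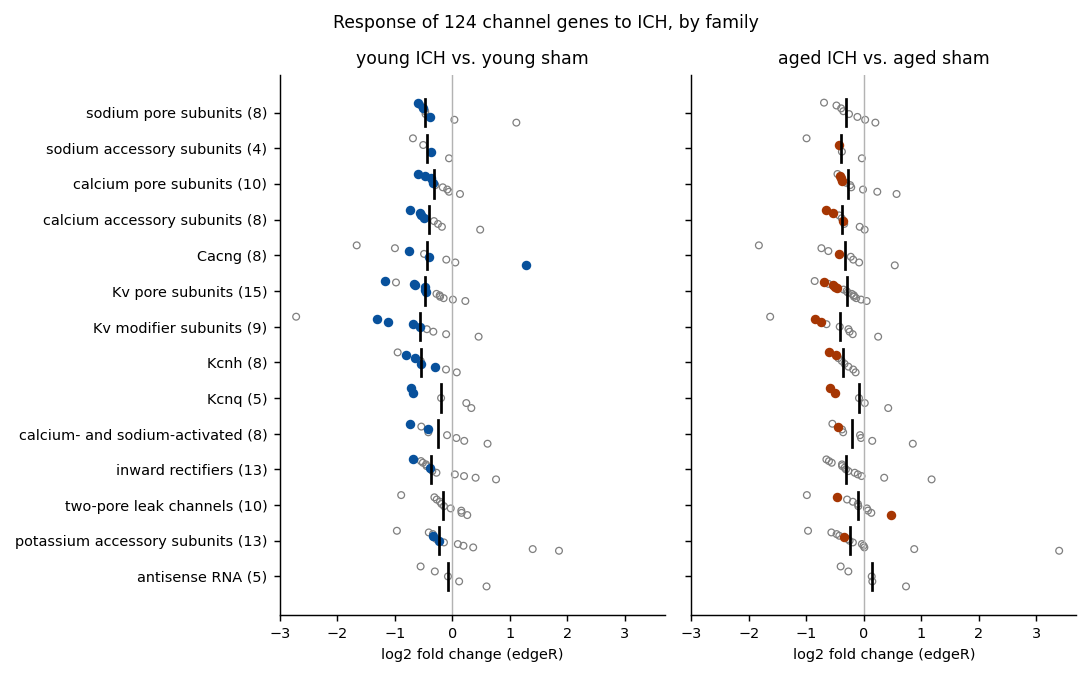
Log2FC of each of the 124 channel genes (x axis) in young ICH vs. young sham (left) and aged ICH vs. aged sham (right), by family (y axis, number of genes in parentheses). Filled points have an adjusted *P* under 0.05 and vertical bars are family medians; the medians of 14 families in young and 13 in aged mice lie below 0, and the filled points above 0 are Cacng5 in young and Kcnk6 in aged mice.

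Of 8 pore-forming subunits of sodium channels, which carry the action potential, 6 had a log2FC below 0 at each age, 3 fell in young mice and 0 passed the adjustment in aged mice. Over all genes tested, 9.13% fell in young and 6.14% in aged mice, and the family counts here and below stand beside these shares. Scn2a (chr2:65620771-65767447), the main sodium channel of excitatory axons, had 28.5, 37.6 and 33.3 FPKM in young sham and 22.98, 26.2 and 20.7 FPKM in young ICH. All ICH samples lay below all sham samples (log2FC -0.60 ± 0.11 SE, adjusted *P* = 0.0051). In aged mice it had 29.9, 26.6 and 27.7 FPKM in sham and 21.3, 24.6 and 23.3 FPKM in ICH, also without overlap (log2FC -0.36 ± 0.11 SE, adjusted *P* = 0.062). Scn8a, the channel of the axon initial segment and the nodes, and Scn3a fell in young mice by 0.38 and 0.52 on the log2 scale, with adjusted *P* of 0.040 and 0.049. Scn1a, the channel of inhibitory neurons, had log2FC of -0.47 and -0.47 at the 2 ages with adjusted *P* of 0.067 and 0.079. Scn7a, Scn9a and Scn10a, known mainly from glia and sensory neurons, had at most 0.926 FPKM in any sample.

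Sodium channel beta subunits are cell adhesion proteins that set the density and gating of the pore. Scn2b fell at both ages, from 79.9, 75.9 and 76.4 to 72.1, 59.9 and 59.9 FPKM in young (log2FC -0.36 ± 0.09 SE, adjusted *P* = 0.019) and from 75.3, 71.7 and 64.3 to 50.7, 58.5 and 56.4 FPKM in aged mice (log2FC -0.42 ± 0.09 SE, adjusted *P* = 0.014). Scn4b, known for the resurgent current of striatal neurons, is described below with the genes that followed the striatal markers.

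Among the calcium channel pore subunits, 4 of 10 fell in young and 3 in aged mice. The R-type channel Cacna1e (chr1:154390731-154884501) went from 13.7, 17.9 and 13.7 FPKM in young sham to 10.4, 10.98 and 10.6 in young ICH (log2FC -0.59 ± 0.10 SE, adjusted *P* = 0.0037), and from 14.4, 14.4 and 14.2 FPKM in aged sham to 10.2, 12.5 and 11.4 in aged ICH (log2FC -0.41 ± 0.10 SE, adjusted *P* = 0.026). Neither pair of groups overlapped. Cacna1i, a T-type channel, fell by 0.48 in young and 0.38 in aged mice on the log2 scale (adjusted *P* = 0.0027 and 0.011), while the T-type channel Cacna1g had 0.13 and 0.24 with adjusted *P* of 0.69 and 0.48. The presynaptic channels Cacna1a and Cacna1b fell in young mice by 0.33 and 0.37 (adjusted *P* = 0.033 and 0.028). The L-type channel Cacna1c fell in aged mice (log2FC -0.40 ± 0.11 SE, adjusted *P* = 0.035), where the L-type channel Cacna1d had a log2FC of -0.01 ± 0.11 SE.

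The calcium channel alpha2delta and beta subunits, which bring the pore to the membrane, were lower in 7 of 8 genes at both ages, and 4 fell in young and 3 in aged mice. Cacna2d3 had 17.2, 16.7 and 15.5 FPKM in young sham against 11.8, 8.48 and 11.4 in young ICH (log2FC -0.73 ± 0.16 SE, adjusted *P* = 0.011). In aged mice it had 14.5, 15.3 and 12.3 FPKM in sham against 7.42, 11.5 and 9.13 in ICH (log2FC -0.66 ± 0.16 SE, adjusted *P* = 0.024), again without overlap. Cacnb1 fell at both ages by 0.49 and 0.37 on the log2 scale, and Cacnb4 by 0.57 and 0.53, whereas Cacnb3 had -0.18 and -0.07 with adjusted *P* of 0.24 and 0.70.

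The Cacng genes encode transmembrane partners, most of which act on AMPA-type glutamate receptors rather than on calcium channels. They held both the lowest adjusted *P* of the channel genes and the only gene that rose in young mice. Cacng3 (chr7:122670492-122769393), an AMPA receptor partner, had 30.2, 31.2 and 35.6 FPKM in young sham and 18.02, 22.2 and 20.5 in young ICH (log2FC -0.76 ± 0.10 SE, adjusted *P* = 0.0013). It had 26.3, 25.8 and 21.8 FPKM in aged sham and 18.03, 20.2 and 19.2 in aged ICH (log2FC -0.44 ± 0.10 SE, adjusted *P* = 0.017), so at each age the ICH samples lay below the sham samples. Cacng8 fell in young mice (log2FC -0.40 ± 0.08 SE, adjusted *P* = 0.0069), and Cacng7 and Cacng2 had overlapping groups in young mice with log2FC of 0.05 and -0.11 (adjusted *P* = 0.71 and 0.51). Cacng1, with a mean of 10.2 counts, met the DEG criterion at both ages and did not pass the adjustment (adjusted *P* = 0.11 and 0.15).

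The voltage-gated potassium channels that repolarize the membrane were the largest family. Of 15 pore subunits, 6 fell in young and 4 in aged mice. Kcna6 differed little between samples of a group, with 12.8, 13 and 13.4 FPKM in young sham, 9.58, 10.7 and 9.84 in young ICH, 12.04, 12.6 and 12.5 in aged sham and 10.1, 8.87 and 9.32 in aged ICH. It fell by nearly the same amount at both ages (log2FC -0.47 ± 0.06 SE, adjusted *P* = 0.0015 in young; log2FC -0.46 ± 0.06 SE, adjusted *P* = 0.0035 in aged), which was under the FC limit of a DEG. Kcna1, which dampens excitability of axons, fell by 0.47 and 0.50, while Kcna2, its usual partner, had -0.28 and -0.28 with adjusted *P* of 0.22 and 0.25. Kcna3, also known from T cells and microglia, fell in young mice from 1.75, 3.12 and 2.29 to 0.898, 1.36 and 1.13 FPKM (log2FC -1.17 ± 0.31 SE, adjusted *P* = 0.023). The fast channels of the Kcnc group, typical of interneurons that fire at high rates, did not pass the adjustment at either age, with log2FC between -0.47 and 0.23.

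Subunits of the Kcnf, Kcng, Kcns and Kcnv groups form no channel alone and modify the Kcnb channels. In this group 4 of 9 fell in young and 2 in aged mice. Kcnv1 (chr15:45106284-45114920) had the largest log2FC at both ages among channel genes that passed the adjustment. It had 21.6, 27.5 and 26.9 FPKM in young sham, 8.56, 14.02 and 10.1 in young ICH, 22, 17.3 and 18.8 in aged sham and 10.3, 12.1 and 11.4 in aged ICH. Its level fell in young (log2FC -1.30 ± 0.17 SE, adjusted *P* = 0.0017) and in aged mice (log2FC -0.85 ± 0.17 SE, adjusted *P* = 0.012), with a wide gap between the groups at both ages. Kcns2 (chr15:34837355-34843407) had 8.06, 7.91 and 8.06 FPKM in young sham and 5.87, 4.33 and 5.73 in young ICH, and 7.59, 7.98 and 6.18 in aged sham and 3.72, 5.299 and 4.62 in aged ICH. The groups did not overlap, and its log2FC was -0.68 in young and -0.75 in aged mice (adjusted *P* = 0.0077 and 0.0093). Kcng1 fell in young mice (log2FC -1.13 ± 0.24 SE, adjusted *P* = 0.0098), with 2.44 to 3.01 FPKM in ICH against 4.97 to 6.35 in sham. Kcng3 met the DEG criterion in young mice with a mean of 17.2 counts and an adjusted *P* of 0.13.

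The ether-a-go-go (Kcnh) and M-current (Kcnq) channels, which restrain repetitive firing, gave 4 of 8 and 2 of 5 genes that fell in young mice, and 2 of each in aged mice. Kcnq3 (chr15:65986387-66286642) had 17.4, 21.4 and 17.9 FPKM in young sham against 13.4, 11.9 and 12.1 in young ICH (log2FC -0.69 ± 0.11 SE, adjusted *P* = 0.0022). In aged mice it had 17.6, 14.8 and 17.6 FPKM in sham against 10.3, 12.9 and 11.8 in ICH (log2FC -0.59 ± 0.11 SE, adjusted *P* = 0.0075), without overlap at either age. Kcnq5 fell similarly, by 0.71 and 0.50 on the log2 scale (adjusted *P* = 0.0015 and 0.0097). Kcnh1 and Kcnh4 fell at both ages, by 0.55 and 0.66 in young and by 0.48 and 0.61 in aged mice.

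**Figure D3:**
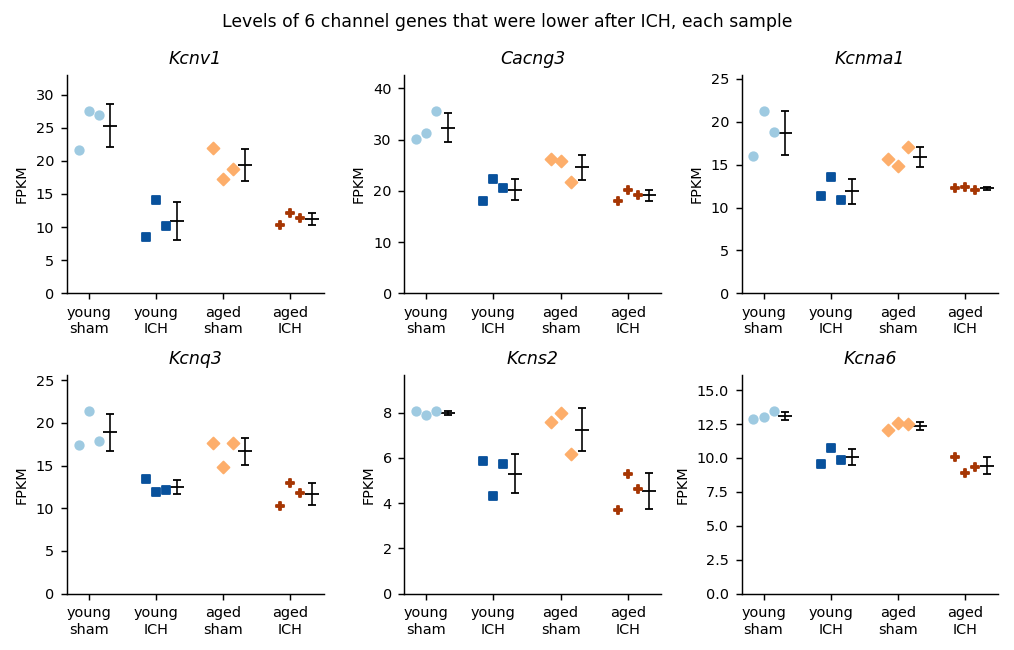
FPKM (y axis, linear from 0) of Kcnv1, Cacng3, Kcnma1, Kcnq3, Kcns2 and Kcna6 in each sample of the 4 groups (x axis), with the mean ± SD of 3 samples to the right of the points. In all 6 panels the 3 ICH samples of each age lie below the 3 sham samples of that age, and Kcnv1 had at least 21.6 FPKM in young sham and as little as 8.56 FPKM in young ICH.

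Of the channels opened by intracellular calcium or sodium, 2 of 8 fell in young and 1 in aged mice. The shares of all genes tested that fell were 9.13% and 6.14%. Kcnma1 (chr14:23289431-24014491), the large-conductance channel that shortens the action potential, had 16.05, 21.3 and 18.8 FPKM in young sham and 11.3, 13.6 and 10.9 in young ICH (log2FC -0.74 ± 0.11 SE, adjusted *P* = 0.0018), and 15.7, 14.8 and 17.1 in aged sham and 12.3, 12.4 and 12 in aged ICH (log2FC -0.45 ± 0.11 SE, adjusted *P* = 0.021). The aged ICH samples hardly differed from each other. The small-conductance channel Kcnn2 fell in young mice by 0.43 (adjusted *P* = 0.022). Kcnt1, opened by sodium, had overlapping groups in young mice (log2FC 0.07 ± 0.10 SE, adjusted *P* = 0.68) and its 3 aged ICH samples (34.3, 33.2 and 38.3 FPKM) lay above all aged sham samples (30.5, 31.4 and 28.9 FPKM) without passing the adjustment (log2FC 0.15 ± 0.10 SE, adjusted *P* = 0.38).

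The inward rectifiers, which hold the resting potential, were mixed. Of 13, 2 fell in young and 0 passed the adjustment in aged mice, where 9.13% and 6.14% of all genes tested fell. Kcnj4 (chr15:79483714-79505241), the strong rectifier of striatal neurons, had 57.5, 51.4 and 52.03 FPKM in young sham and 38.4, 33.9 and 34.3 in young ICH without overlap (log2FC -0.68 ± 0.20 SE, adjusted *P* = 0.036). In aged mice the samples spread widely, with 44.4, 58.8 and 35.4 FPKM in sham and 25.9, 41.5 and 28.4 in ICH, and the groups overlapped (log2FC -0.61 ± 0.20 SE, adjusted *P* = 0.070). Kcnj11, the pore of ATP-sensitive channels in neurons, fell in young mice by 0.39 (adjusted *P* = 0.036). Kcnj8, its counterpart in pericytes and smooth muscle, had log2FC of 0.40 and 0.36 with adjusted *P* of 0.17 and 0.25, and the glial Kcnj16 had 0.04 and -0.04 with 0.85 and 0.88.

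The tandem-pore leak channels hold the membrane near its resting potential. Of 10, 0 passed the adjustment in young mice, where 7 had a log2FC below 0 and Kcnk2 met the DEG criterion (adjusted *P* = 0.064). The shares of all genes tested that fell were 9.13% in young and 6.14% in aged mice. In aged mice Kcnk1, a leak channel found in neurons and astrocytes, fell from 31.1, 36.1 and 32.2 to 24.7, 29.8 and 21.6 FPKM (log2FC -0.46 ± 0.11 SE, adjusted *P* = 0.021). The microglial channel Kcnk13 had -0.03 ± 0.15 SE in young and -0.10 ± 0.15 SE in aged mice.

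Of 13 potassium channel accessory subunits, 2 fell in young and 1 in aged mice, where 9.13% and 6.14% of all genes tested fell. They were Kcnip1 and Kcnip3 in young mice and Kcnip1 in aged mice. These calcium-binding proteins associate with A-type channels. Kcnip1 had 3.18, 3.27 and 3.29 FPKM in young sham and 2.86, 2.94 and 2.399 in young ICH (log2FC -0.34 ± 0.10 SE, adjusted *P* = 0.029) and a log2FC of -0.34 in aged mice (adjusted *P* = 0.035). Kcnab2, the most abundant potassium channel accessory subunit, had log2FC of 0.09 and 0.01, each ± 0.12 SE. Of the 5 non-coding RNAs, 0 met the DEG criterion at either age, and since no strand setting is given for the counting, their reads cannot be told apart from those of the channel genes they overlap.

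A set of channel genes varied with the striatal markers. Scn4b (chr9:45138395-45154152) had 142, 94.7 and 86.3 FPKM in young sham, 73.8, 42.9 and 97.6 in young ICH, 128, 120 and 90.6 in aged sham and 33.8, 97.8 and 47.2 in aged ICH. Its order over the samples was nearly that of the 10 striatal projection neuron markers: Pearson's r of the log2 levels was 0.98 over 12 samples, 0.91 over the 6 sham samples, 0.98 over the 6 ICH samples and 0.96 without the 2 samples farthest from the median, and Spearman's rho over 12 samples was 0.99. These are descriptions of samples that share the normalization and the sham and ICH groups. Of 102 channel genes with a mean of 100 or more counts, 8 had r over 0.90 over the 12 samples (Scn4b, Cacng4, Kcna4, Kcnip2, Kcnab1, Kcnd2, Kcnk2 and Scn3a), 11 had r over 0.8 within both the sham and the ICH samples, and 37 had r below 0. Those 8 include the A-type channels Kcna4 and Kcnd2, their partners Kcnab1 and Kcnip2, and the leak channel Kcnk2. They were picked by the r over all 12 samples, and within the 6 sham samples Kcnip2 had r of 0.71 and Scn3a 0.61. The r was not computed for genes outside the set, so no share over all genes stands beside these counts.

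Kcna4 shows the pattern, with 3.895, 2.74 and 4.84 FPKM in young ICH and 2.11, 6.598 and 3.23 in aged ICH, where the lowest sample of each trio was the one lowest in striatal markers. Aged ICH sample 2, with 616 FPKM of striatal markers, lay within the range of the aged sham samples (7.68, 7.597 and 5.14 FPKM). Kcnab1 behaved alike, with 6.89, 17.01 and 9.095 FPKM in aged ICH against 23.2, 21.6 and 16.5 in aged sham. Both met the DEG criterion at both ages and neither passed the adjustment (Kcna4, adjusted *P* = 0.093 in young and 0.16 in aged; Kcnab1, 0.070 and 0.086). Kcnd2 passed it at both ages (log2FC -0.65 ± 0.20 SE, adjusted *P* = 0.044 in young; log2FC -0.69 ± 0.20 SE, adjusted *P* = 0.045 in aged). At each age Kcnd2 kept this call in only 2 of the 12 fits with a sample left out, with an adjusted *P* of up to 0.13. Cacna1g, which is known from thalamic neurons, ran the other way, with r of -0.79 over 12 samples, -0.84 in sham and -0.74 in ICH.

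With the striatal marker level as a covariate, a fit added after the data were seen, 48 channel genes were lower and 2 higher by adjusted *P* in young mice and 24 lower and 1 higher in aged mice. Of all 21495 genes, 2161 were then lower and 1879 higher in young and 983 lower and 782 higher in aged mice. The DEG counts of lower channel genes were 23 in young and 9 in aged mice, and those of all genes 902 and 589. Without the covariate, Scn4b met the DEG criterion for lower levels in aged mice and passed the adjustment at neither age. With it, Scn4b had a difference of log2FC -0.14 ± 0.11 SE, adjusted *P* = 0.38 in young and log2FC -0.38 ± 0.11 SE, adjusted *P* = 0.061 in aged mice. Kcnma1 had log2FC -0.84 ± 0.10 SE, adjusted *P* = 0.0012 in young and log2FC -0.57 ± 0.11 SE, adjusted *P* = 0.016 in aged mice, and Kcnv1 log2FC -1.40 ± 0.19 SE, adjusted *P* = 0.0026 and log2FC -0.96 ± 0.20 SE, adjusted *P* = 0.023. The covariate is itself lower in ICH, so this fit and the one without it answer different questions. Scn4b had been picked by its r with this marker sum, so its values with the covariate add no separate evidence. Kcnma1 and Kcnv1 had r of 0.34 and 0.46 with the sum over the 12 samples. The part of tissue makeup in these values was not tested. Without young ICH sample 2 and aged ICH sample 1 together, 33 channel genes were lower by adjusted *P* in young and 7 in aged mice, with 28 and 4 by the DEG criterion. Of the 21878 genes then tested, 1883 were lower by adjusted *P* in young and 287 in aged mice, with 951 and 431 by the DEG criterion.

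**Figure D4:**
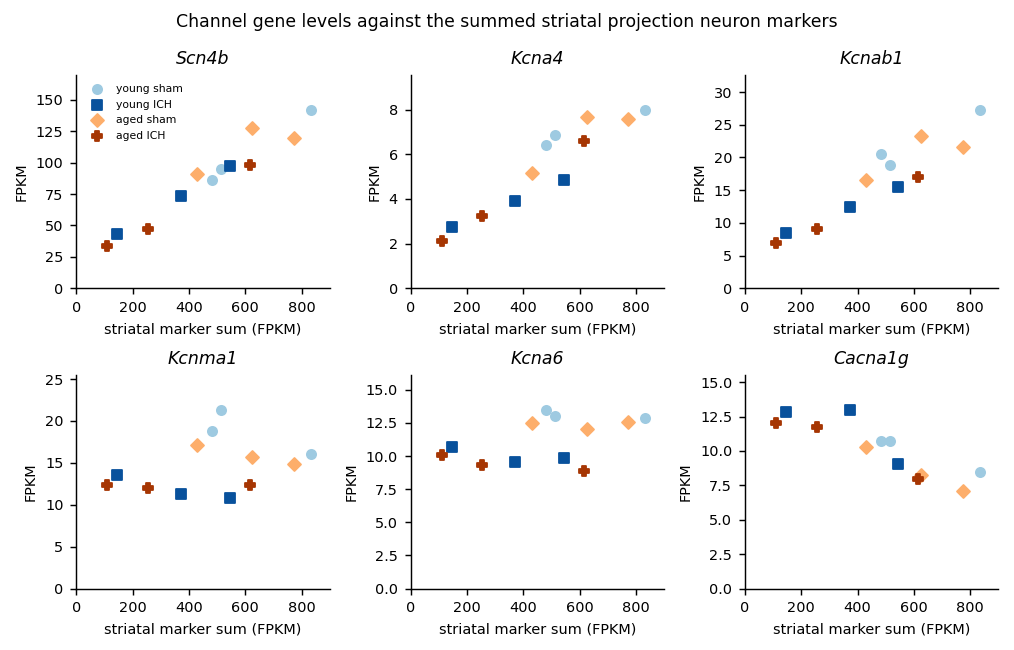
FPKM of 6 channel genes (y axes) against the summed FPKM of 10 striatal projection neuron markers (x axes) in each of the 12 samples, with groups marked as in the legend. Scn4b, Kcna4 and Kcnab1 increase along the marker sum in sham and ICH samples alike, all 6 ICH samples of Kcnma1 and Kcna6 lie below all 6 sham samples, and Cacna1g decreases along it from 12.9 to 7.12 FPKM.

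Few channel genes were higher after ICH. Cacng5 (chr11:107874605-107915055), a partner of AMPA receptors, was the only one of the 124 that rose in young mice by edgeR, from 3.91, 3.28 and 2.15 FPKM in sham to 9.97, 5.49 and 8.69 in ICH (log2FC 1.28 ± 0.28 SE, adjusted *P* = 0.011). All ICH samples lay above all sham samples, and the adjusted *P* was 0.0055 to 0.045 when single samples were left out. In aged mice the sham samples lay above those of young mice (4.36, 5.06 and 7.48 FPKM), and the ICH samples had 9.63, 8.57 and 7.57 FPKM (log2FC 0.54 ± 0.27 SE, adjusted *P* = 0.22). Kcnk6, a leak channel, rose in aged mice from 2.26, 2.04 and 1.87 to 2.68, 3.09 and 3.205 FPKM (log2FC 0.47 ± 0.12 SE, adjusted *P* = 0.027), with an adjusted *P* of 0.023 to 0.10 when single samples were left out. Its young ICH samples (3.43, 2.78 and 2.87 FPKM) were also above the young sham samples (2.47, 2.15 and 2.52 FPKM), with a log2FC of 0.26 and an adjusted *P* of 0.16.

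Kcne4, an accessory subunit that inhibits potassium channels and is known from leukocytes and vessels, met the DEG criterion in young mice. It had 0.468, 0.262 and 0.442 FPKM in young sham and 1.86, 0.681 and 0.737 in young ICH (log2FC 1.40 ± 0.45 SE, adjusted *P* = 0.051), and 0.231, 0.536 and 0.484 in aged sham and 0.641, 1.18 and 0.611 in aged ICH (log2FC 0.88 ± 0.46 SE, adjusted *P* = 0.23). Kcnn4, the intermediate-conductance channel of leukocytes and microglia, met it in aged mice with 0.177, 0.104 and 0.152 FPKM in sham and 0.372, 0.213 and 0.235 in ICH (log2FC 0.85 ± 0.31 SE, adjusted *P* = 0.096). Kcnj15 had at most 0.105 FPKM and met it in aged mice (log2FC 1.18 ± 0.41 SE, adjusted *P* = 0.079), and Scn10a, at most 0.391 FPKM, met it in young mice with groups that overlapped (log2FC 1.11 ± 0.48 SE, adjusted *P* = 0.13). Markers of infiltrating leukocytes were higher beside them, with 7 of 8 higher by adjusted *P* in young and 3 of 8 in aged mice, as were 5 and 3 of 6 endothelial markers. Their part in these values was not tested.

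Kcne2, an accessory subunit of the choroid plexus epithelium, had the highest log2FC of the 124 genes at both ages without meeting the DEG criterion. It had 2.11, 0.8898 and 0.162 FPKM in young sham, 0.283, 0.303 and 11.96 in young ICH, 0.256, 0.206 and 0.271 in aged sham and 4.23, 3.43 and 0.551 in aged ICH. The 3 samples over 3 FPKM were the same as those over 1000 FPKM in choroid plexus markers. The log2FC was 1.85 ± 1.39 SE in young and 3.40 ± 1.64 SE in aged mice (adjusted *P* = 0.40 and 0.21). Without those 3 samples, which left the aged ICH group with 1 sample assumed to vary like the others, it was log2FC -1.93 ± 0.87 SE, adjusted *P* = 0.21 in young and log2FC 1.10 ± 1.09 SE, adjusted *P* = 0.63 in aged mice. The counts of channel genes with lower levels by adjusted *P* were then 25 and 3, and those of all 22844 genes tested 1101 and 176.

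**Figure D5:**
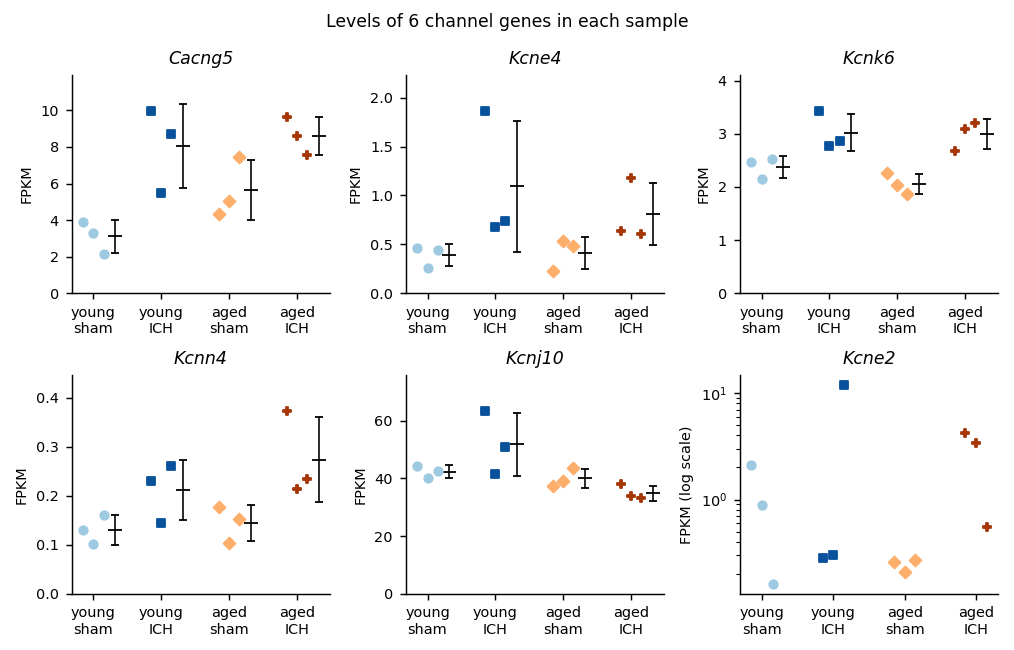
FPKM (y axis) of Cacng5, Kcne4, Kcnk6, Kcnn4, Kcnj10 and Kcne2 in each sample of the 4 groups (x axis), with the mean ± SD of 3 samples to the right of the points; the axis of Kcne2 is logarithmic and has no mean. Cacng5 and Kcne4 were higher in all ICH samples than in all sham samples of the same age, and 3 samples of Kcne2 stood above 3 FPKM. The mean of Kcnj10 was highest in young ICH, although its lowest young ICH sample lay among the sham samples.

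The comparison of the sham groups asks which genes differ with age, with the same sham samples as in the ICH comparisons. In aged sham vs. young sham, 88 of the 124 channel genes had a log2FC below 0 (median -0.12, against 0.01 over all genes). Only Cacng5 and Scn10a were DEGs, both higher in aged mice, which is 1.61% of the channel genes where 2.73% of all genes were higher and 0.856% lower. Cacng5 had 4.36, 5.06 and 7.48 FPKM in aged and 3.91, 3.28 and 2.15 in young sham (log2FC 0.81 ± 0.28 SE, adjusted *P* = 0.30), and Scn10a 0.284, 0.175 and 0.255 against 0.126, 0.0873 and 0.0797 FPKM (log2FC 1.23 ± 0.47 SE, adjusted *P* = 0.33). By adjusted *P*, 0 channel genes differed by edgeR, 16 had an unadjusted *P* under 0.05 (12.9%, where 12.1% of all genes did), and DESeq2 called 1, Cacng3, with a log2FC of -0.44 and an adjusted *P* of 0.013. Over all genes, DESeq2 called 137 lower and 143 higher by adjusted *P*, where edgeR called 3 and 19. Without aged sham sample 3 or without young sham sample 3, 0 channel genes were DEGs with higher levels, and without aged sham sample 1 or young sham sample 2 there was 1. Over all genes, the DEG count of higher genes moved from 587 to 455, 542, 638 and 514 in that order.

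In aged ICH vs. young ICH, 2 channel genes were DEGs, both lower in aged mice (1.61%, where 1.27% of all genes were lower and 2.16% higher). Kcnj10 (chr1:172341210-172374085), through which astrocytes clear potassium, had 63.2, 41.6 and 50.7 FPKM in young ICH and 37.9, 33.7 and 33.01 in aged ICH, so the aged samples lay below all young samples (log2FC -0.60 ± 0.12 SE, adjusted *P* = 0.15). The sham samples had 44.3, 40.04 and 42.7 FPKM in young and 37.2, 39.03 and 43.8 in aged mice. DESeq2 gave the difference between the ICH groups a log2FC of -0.60 with an adjusted *P* of 0.0021, where edgeR's adjusted *P* was 0.15. Cacna2d4 had 0.8797, 0.463 and 0.527 FPKM in young ICH and 0.411, 0.4196 and 0.305 in aged ICH (log2FC -0.75 ± 0.24 SE, adjusted *P* = 0.35). By adjusted *P*, 0 channel genes passed by edgeR, 11 had an unadjusted *P* under 0.05 (8.87%, where 9.41% of all genes did) and 1 passed by DESeq2. Over all genes, DESeq2 called 103 lower and 86 higher by adjusted *P*, where edgeR called 4 and 6. Of 7 oligodendrocyte and 7 astrocyte markers, all were lower in aged than in young ICH, with medians of -0.58 and -0.15, and the part of these cells in the level of Kcnj10 was not tested. The count of 2 was 0 without young ICH sample 1, 6 without aged ICH sample 2 and 4 without young ICH sample 3. Over all genes, the DEG count of lower genes moved from 273 to 259, 420 and 290 in that order.

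The response to ICH was then compared between the ages with an interaction term. No channel gene met the DEG criterion there, where 0.447% of all genes had a response that was higher in aged mice and 1.02% one that was lower. By edgeR, 2 of the 124 had an unadjusted *P* under 0.05 (Kcnj10 and Cacng3), which is 1.61% where 2.72% of all genes did, 0 passed the adjustment, and 0 of all 21495 genes passed it. Kcnj10 had a log2FC of 0.20 in young and -0.27 in aged mice, a difference of -0.47 ± 0.17 SE. Cacng3 had a difference of 0.33 ± 0.14 SE. With DESeq2, 1 channel gene met the criterion, Cacng5, with a difference of -0.73, and 0 passed the adjustment. Over all genes, 219 lower and 140 higher responses met it with DESeq2. The edgeR count of channel genes reached 4 without young ICH sample 2, was 2 without young ICH sample 3, aged ICH sample 3 or young sham sample 1, and 1 without aged ICH sample 1, aged ICH sample 2 or aged sham sample 1. Without young ICH sample 2, 330 lower and 235 higher responses met it over all genes, against 219 and 96 with every sample.

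Genes that act with these channels but lie outside the families were mostly lower as well. Of 27 such genes, among them pacemaker channels, ankyrins, fibroblast growth factor homologous factors and auxiliary subunits, 26 were tested. In young mice 21 had a log2FC below 0 (median -0.36), 13 fell and 1 rose. In aged mice 23 were below 0 (median -0.34), 10 fell and 0 rose. Over all genes tested the medians were 0.02 in young and 0.00 in aged mice. By adjusted *P*, 9.13% and 6.14% of all genes were lower and 9.77% and 6.83% higher at the 2 ages. The counts of these 26 genes were not repeated with single samples left out. Nalcn, the sodium leak channel, fell at both ages (log2FC -0.61 ± 0.09 SE, adjusted *P* = 0.0021 in young; log2FC -0.54 ± 0.09 SE, adjusted *P* = 0.0067 in aged), as did its partner Unc79 by 0.57 and 0.42. The factors Fgf12, Fgf13 and Fgf14, which bind sodium channels, and the ankyrins Ank2 and Ank3, which anchor them, fell at both ages, by 0.33 to 0.56 on the log2 scale. Rest, a repressor that silences neuronal genes, was the one that rose in young mice, from 0.971, 0.816 and 0.831 FPKM in sham to 1.42, 1.31 and 1.84 in ICH (log2FC 0.71 ± 0.13 SE, adjusted *P* = 0.0040). In aged mice it had 1.101, 1.22 and 1.33 and 1.64, 1.74 and 1.64 FPKM (log2FC 0.39 ± 0.13 SE, adjusted *P* = 0.064).

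Since many channel genes moved together, the sequences at their start sites were read. RefSeq windows of 300 bases on GRCm38.p6, from 250 bases before to 50 after the start, were at hand for 89 of the 124 channel genes, with the first listed window used where there were several. Kcnv1, Kcnq3 and Kcns2 were among those without a window. A RefSeq start can lie inside the gene as the other annotation draws it. The median GC content was 61.3% in the channel genes and 52.7% over all 27025 genes with a window, whether or not they were tested here. The channel genes had passed a count minimum and the others had not, so the 2 sets differ in more than the family. The GC box GGGCGG, searched on both strands like each motif here, was in 53.9% of the channel gene windows and 35.9% of all windows. The AP-1 element TGANTCA was in 3.37% and 7.93%, the cAMP response element TGACGTCA in 0% and 1.88%, and the TATA box TATAAA in 3.37% and 14.2%. Of 2 pieces of the RE1 element that Rest binds, GGACAGC was in 12.4% and 6.59% and CAGCACC in 8.99% and 7.09%. A match is a run of letters and not a binding site.

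The windows of 3 genes follow, shown because they stand for the patterns above: Kcnma1, which fell at both ages, Scn4b, which followed the striatal markers, and Cacng5, which rose in young mice. Capitals mark a match to any of the 6 motifs. Scn4b (chr9:45138374-45138673, plus strand, 66.3% GC) held 0 matches, Kcnma1 (chr14:24004156-24004455, minus strand, 78% GC) held 3 GC boxes, of which 2 overlap, and Cacng5 (chr11:107915006-107915305, minus strand, 63.3% GC) held 2 GC boxes and 1 AP-1 element.
Kcnma1: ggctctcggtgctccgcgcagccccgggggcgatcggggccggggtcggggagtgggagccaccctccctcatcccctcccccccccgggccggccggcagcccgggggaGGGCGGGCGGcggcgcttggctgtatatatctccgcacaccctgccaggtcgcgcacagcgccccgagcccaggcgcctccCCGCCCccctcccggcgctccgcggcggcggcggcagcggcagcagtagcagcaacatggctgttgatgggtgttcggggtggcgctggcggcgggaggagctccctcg
Scn4b: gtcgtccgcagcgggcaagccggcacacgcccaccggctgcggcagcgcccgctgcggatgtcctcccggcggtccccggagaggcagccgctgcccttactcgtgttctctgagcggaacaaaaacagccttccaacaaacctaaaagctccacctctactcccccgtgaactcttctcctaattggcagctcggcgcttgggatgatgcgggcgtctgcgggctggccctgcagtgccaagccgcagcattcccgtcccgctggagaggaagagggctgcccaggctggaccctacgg
Cacng5: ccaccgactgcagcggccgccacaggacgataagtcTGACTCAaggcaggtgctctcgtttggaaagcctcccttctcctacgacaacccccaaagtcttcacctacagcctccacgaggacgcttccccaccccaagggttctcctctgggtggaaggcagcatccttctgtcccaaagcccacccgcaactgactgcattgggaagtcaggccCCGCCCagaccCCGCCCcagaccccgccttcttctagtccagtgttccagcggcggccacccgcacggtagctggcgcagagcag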

How the data were processed

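RNA-seq was analysed from 12 samples assigned to the 4 groups by their labels. The authors aligned paired reads to GRCm38.p6 with Hisat2 and counted reads per gene with FeatureCounts; their deposited table gives raw counts and FPKM per sample for 54833 genes. FPKM are divided by transcript length and mapped fragments by the authors. No strand setting is given in the sources used here, so overlapping and antisense genes may share reads, and so may close paralogs.

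Counts were tested with edgeR 4.0.16 (R 4.3.3) by its quasi-likelihood test, with TMM factors, a filter (minimum count 10), all 12 samples and 4 group means. DEGs had an FC over 1.5 or under 0.67 with an unadjusted *P* under 0.05. The adjusted *P* is Benjamini-Hochberg over 21495 genes. Log2FC are given with SE and FPKM per sample. Correlations used log2 of FPKM plus 0.1. Scripts were tested on simulated data. Alternatives were DESeq2 1.42.0, other size factors, no filter, the compared groups alone, the replicate number as a block and leaving out each sample.

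The members, lists and tests were chosen with earlier results of these data known. Genes named were a fixed list, the 12 DEGs with the smallest *P* per direction for ICH (5 for age), the highest of each family and list members. Kcna6, Kcnh1, Cacna1i, Cacnb1, Scn2b, Kcnip1, Kcnip3, Kcnn2, Cacng7, Cacng8, Kcnj15, Cacnb3, Cacng4, Kcnab2, Kcng3, Scn9a, Scn10a, Kcnj10 in the interaction, those that lost their call with a sample left out and the genes that followed striatal markers were, where that rule did not name them, picked after their values were seen. Values of some channel genes and 2 sequences are not reported here. Gene positions are from a GENCODE annotation of the same build.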

Additional observations from a re-analysis of the deposited data

How the results depend on the processing

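In young ICH vs. young sham, 21 channel genes were DEGs with lower and 3 with higher levels; over the samples left out in turn, 16 to 26 were lower and 2 to 4 higher, and without the 2 ICH samples lowest in striatal markers 28 and 4. By adjusted *P* with no FC limit, 36 were lower and 1 higher, and in aged ICH vs. aged sham 1 was higher. In aged ICH vs. aged sham the count of lower genes, 14, was 7 with only the 6 samples compared, 9 with the striatal marker level as a covariate, 4 without the 2 ICH samples lowest in striatal markers, and 3 to 24 over the samples left out in turn. The count of higher genes, 2, was 4 with only the 6 samples compared, 1 without the 2 samples lowest in striatal markers, 1 without the 3 samples highest in choroid plexus markers, and 0 to 4 over samples left out. In aged sham vs. young sham, 2 genes were higher (0 by adjusted *P*, 0 to 2 over samples left out) and 0 lower (1 with only the 6 samples compared, 1 without the 3 choroid plexus samples, 0 to 1 over samples left out). In aged ICH vs. young ICH, 2 were lower (0 by adjusted *P*, 6 without the choroid plexus samples, 0 to 6 over samples left out) and 0 higher (1 with the covariate, 0 to 1 over samples left out). Responses that differed by age, 0, were 1 with DESeq2, 4 without the 2 samples lowest in striatal markers, 1 without the choroid plexus samples and 0 to 4 over samples left out. The DEG counts over all genes moved as well. In young ICH vs. young sham 733 were lower, 554 to 951 over the samples left out, and 951 without the 2 samples lowest in striatal markers. In aged ICH vs. aged sham 582 were lower, and 438 to 1074 over the samples left out. There, 509 were lower with only the 6 samples compared, 589 with the covariate and 431 without the 2 samples lowest in striatal markers. The 3 settings based on marker levels were chosen after seeing the data, and the cause of these shifts was not tested.

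Upper-quartile and RLE size factors moved the median of all genes by under 0.1 on the log2 scale. Of the named DEGs, 0 changed direction under any setting; their adjusted *P* stayed on the same side of 0.05 in 631 cases, was newly over it in 35 and newly under it in 26. The named DEGs had been picked for a small *P* in these same samples, so a kept direction was likely from the start. The cases on the same side include genes that were over 0.05 in both fits. Of the 37 channel genes with an adjusted *P* under 0.05 in young ICH vs. young sham, 18 stayed under it whichever sample was left out, and of the 22 in aged ICH vs. aged sham 3 did (Kcnq3, Kcns2 and Kcna6).

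The replicate numbers did not pair the samples: of 18 pairs of samples with the same number, 5 had deviations from the group means with r over 0.1, and r ran from -0.45 to 0.23. With the number as a block, 20 channel genes were DEGs with lower levels in young and 11 in aged mice after ICH. Of all genes tested, 684 and 559 were. Genes with few counts were measured less precisely: the log2FC in young ICH vs. young sham had an SE of 0.48 for Scn10a, with a mean of 54 counts, and 0.06 for Kcna6.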
